A study of Mus musculus with 3 samples.

Results

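The cells described here are droplet barcodes of mouse dorsal skin chosen by a fixed gate of marker genes and proposed as reticular dermal fibroblasts, the cells that make the collagen fibres of the deeper dermis. A barcode entered with at least 500 genes, at least 1000 unique molecular identifiers (UMIs, each a counted RNA molecule) and at most 15% of UMIs from mitochondrial genes. It also needed a UMI from at least 4 of Col1a1, Col1a2, Dcn, Lum and Pdgfra, and none from Ptprc (leukocytes), Pecam1 (endothelium) or Krt5 (basal keratinocytes). Further limits were meant to set other fibroblast kinds aside: at most 1 UMI of Coch, at most 1 of Pi16, Dpp4, Sema3c and Opcml detected, at most 1 of Notum, Slc26a7 and Pappa2 detected, and not Gpx3 at 5 or more UMIs together with C3 at 2 or more. The gate held 1021 of 62746 deposited barcodes, namely 374 of 15290 in the young control, 431 of 25348 in the knockout library and 216 of 22108 from old skin. The counts of these genes chose the cells, so their values are given as a description only.

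The series holds 3 libraries, 1 for each group, so no comparison between groups could be tested and no p-value is given. The young control was skin of Yap1 fl/fl; Wwtr1 fl/fl mice at 2.5 months without the Cre transgene. The knockout carried R26-CAG-CreER together with both pairs of floxed alleles and had the same age. Both received tamoxifen by gavage at 0.11 mg for each g of mouse, on 2 days of each of 4 weeks. CAG is a broadly active promoter, so deletion was not limited to fibroblasts. The old control was wild-type skin at 24 months without tamoxifen, so its age, its alleles and the missing drug cannot be told apart. How many animals gave each library is not stated in the labels. Unless said otherwise, sets of 3 values below are in the order young control, knockout, old control.

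Among the gated cells, Xist, the RNA of the inactive X chromosome, stood at 1251, 0 and 1145 CPM, which is counts per 1000000 UMIs. The Y-linked gene Ddx3y stood at 0, 120 and 0 CPM. By these genes the knockout library came from male skin and both controls from female skin, and the effects of sex and of the deletion cannot be told apart. The gated cells carried 1466134, 1412488 and 561546 UMIs, with medians of 3020, 2190 and 1584 per cell. Their median mitochondrial share was 5.81%, 10.2% and 8.42%. Libraries shared 127 to 198 barcode sequences in each pair, none of them among gated cells.

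Fibroblasts secrete and maintain the extracellular matrix of skin. Type I and III collagen chains give tensile strength, small leucine-rich proteoglycans such as decorin space the fibrils, and elastin on fibrillin scaffolds gives recoil. Papillary fibroblasts lie under the epidermis and reticular fibroblasts below them, where the coarse collagen bundles are. YAP (Yap1) and TAZ (Wwtr1) are transcriptional coactivators of TEAD factors that respond to stiffness and cell shape, and Ctgf, Cyr61 and Ankrd1 are widely used readouts of their activity.

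The label was checked against the marker content of each cell, and it did not hold for most of the gated cells. The 5 markers gave a median of 3.99% of a cell's UMIs in the young control (10th to 90th percentile 0.285% to 12.9%), 0.676% in the knockout (0.266% to 3.29%) and 1.57% in the old control (0.567% to 5.49%). In the barcodes that passed the quality limits but not the marker gate, the same genes made up 1.14%, 0.224% and 0.289% of UMIs. The young control's cells thus had the highest median, and the ranges of all 3 libraries overlapped. At the edge of the rule, barcodes with 4 markers had median shares of 0.954%, 0.542% and 1.09% in the young control, knockout and old control, and those with 3 had 0.310%, 0.352% and 0.538%. Barcodes with all 5 markers had 6.90%, 1.75% and 2.97%, and the gate's share of barcodes that passed the quality limits was 3.19%, 4.58% and 1.79%.

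**Figure D1:**
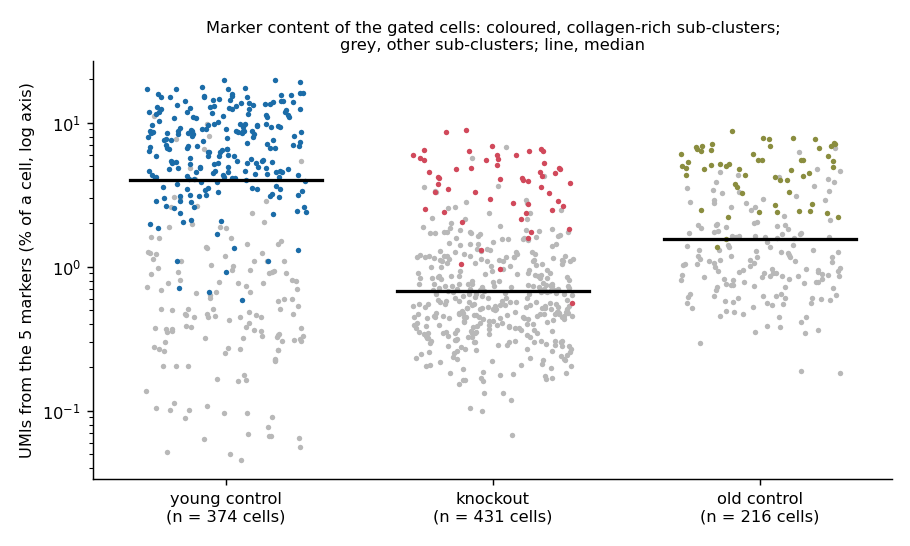
Share of each gated cell's UMIs from Col1a1, Col1a2, Dcn, Lum and Pdgfra (vertical log axis, percent) in the 3 libraries. Each point is a cell, coloured where its sub-cluster was collagen-rich and grey otherwise, and the line is the median (3.99%, 0.676% and 1.57%).

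Leiden clustering of all gated cells together, with the rule's genes left out, gave 16 sub-clusters, described here by number and leading genes. Sub-clusters 1, 6, 9, 12 and 14 had a pooled marker share of at least 2% of UMIs, a limit set after the shares were seen: the lowest of them was at 3.77% and the highest of the others at 1.78%. They are called collagen-rich below and held 341 of the 1021 cells: 227 in the young control (60.7%, exact Clopper-Pearson 95% interval 55.5% to 65.7%), 56 in the knockout (13.0%, 9.97% to 16.5%) and 58 in the old control (26.9%, 21.1% to 33.3%). Sub-cluster 1 was led by Il1r2, Mfap4, Cd34 and Clec3b and held 143 young control, 4 knockout and 31 old control cells. Of 13 fascia and adventitia markers, 3 (Ly6c1, Cd34 and Pcolce2) were there at over 3 times their level in the remaining gated cells. Of 11 reticular and lower dermis markers, 1 (Dpep1) was. Sub-cluster 6, led by Igfbp2, Stc1, Rspo3 and Wnt5a, held 47, 17 and 7 cells. Sub-cluster 9 was led by Apod, Smoc2 and Gpc3 and held 20, 9 and 16. Sub-cluster 12, led by Mgp, Hmcn2 and Gdf10, held 16, 6 and 3. Sub-cluster 14 was led by Lrrtm3, Pgr and Pthlh and was nearly all knockout, with 1, 20 and 1 cells. In sub-clusters 6, 9, 12 and 14, 1, 1, 1 and 0 fascia markers and 1, 2, 3 and 1 reticular ones were over that level. Of 12 papillary markers, 2 (Col7a1 and Rspo1) were over it in sub-cluster 6 and 0 in sub-clusters 1, 9, 12 and 14. Sub-cluster 6 also had 1 of 14 dermal papilla and sheath markers (Crabp1) over it. The marker share thus does not tell reticular fibroblasts from those of the fascia or the papillary dermis. With 1 library per group, a sub-cluster drawn mostly from 1 of them may be that library rather than a kind of cell.

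Most of the other 680 cells lay in sub-clusters that carried the leading genes of other skin cells. By each cell's own share, 231, 68 and 86 gated cells had at least 2% of UMIs from the 5 markers. In each library these were more than the collagen-rich sub-clusters held, and the gap was widest in the old control. Some cells with a high share, such as an old control cell at 6.63%, thus lay in the other sub-clusters. Sub-cluster 2 (3 young control, 123 knockout and 11 old control cells) had 7 of 9 endothelial markers, among them Cdh5, Kdr and Plvap, at over 3 times their level in the remaining gated cells, although the rule kept out every barcode with Pecam1. Sub-cluster 5 (5, 72 and 6 cells) was led by the smooth muscle genes Myh11, Des, Actg2 and Cnn1. Sub-cluster 4 (17, 80 and 1) had 5 of 8 Schwann cell and melanocyte markers over that level, and sub-cluster 11 (18, 6 and 2) had the myelin gene Mbp among its leading genes. Sub-cluster 3 (21, 0 and 106) mixed haemoglobin genes, the pigment genes Dct and Pmel and the keratinocyte gene Cst6. Sub-cluster 10 (21, 20 and 0) had 9 of 10 macrophage and dendritic cell markers beside the pericyte genes Rgs5 and Notch3, sub-cluster 13 (10, 12 and 1) was led by the mast cell proteases Mcpt4, Cpa3 and Cma1, and sub-cluster 16 (11, 0 and 0) by the keratins Krt1 and Krt10. Sub-cluster 15 (5, 0 and 6) was led by the lipid synthesis genes Elovl4 and Scd1. Sub-cluster 8 (18, 33 and 2), led by Ptch1, Sfrp5 and the integrin gene Itgb4, is not named as a cell type here. Over that level it had 0 of 11 keratinocyte markers and 1 of 9 endothelial ones (Cdh5). The same held for 2 of 13 fascia markers and 2 of 25 positional and mesenchymal regulators (Meox2 and Ebf2). In sub-cluster 7 (18, 29 and 23) the leading genes Tnn, Lrrc15, Postn and Tnc encode matrix or membrane proteins of mesenchymal cells, and its pooled marker share was 1.14%. It had 3 of 12 papillary markers (Prdm1, Trps1 and Col23a1) over that level. So were 2 of 14 dermal papilla and sheath markers (Enpp2 and Vcan) and 0 of 11 reticular ones. The gated cells are therefore named by their rule here, and the collagen-rich ones are described separately.

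**Figure D2:**
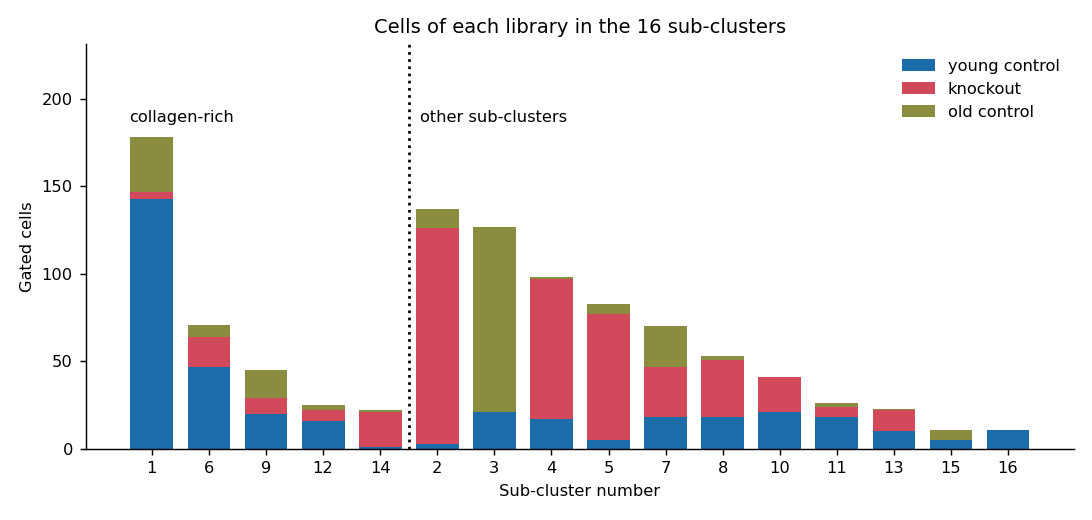
Number of gated cells from each library (stacked bars) in the 16 sub-clusters, with the 5 collagen-rich ones on the left of the dotted line. Knockout cells fill most of sub-clusters 2, 4, 5 and 14, old control cells most of sub-cluster 3, and young control cells most of sub-cluster 1.

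The summed markers of other classes differed between libraries. Over all gated cells, the 11 keratinocyte markers summed to 4496, 662 and 3191 CPM. The 9 pericyte and smooth muscle markers summed to 1288, 5300 and 1165 CPM, and the 9 endothelial ones to 610, 1119 and 760 CPM. None of these 3 lists had a marker at 0 in any library. The 8 Schwann cell and melanocyte markers summed to 2959, 3368 and 1099 CPM, the 10 macrophage and dendritic cell ones to 715, 427 and 1081 CPM, and the 5 red blood cell ones to 2913, 825 and 857 CPM. In the collagen-rich cells the keratinocyte sum was 1492, 201 and 1005 CPM (1 marker at 0, in the knockout), the pericyte and smooth muscle sum 216, 372 and 126 CPM (1, 1 and 2 markers at 0), and the endothelial sum 743, 419 and 631 CPM (0, 2 and 2 at 0). There the macrophage and dendritic cell sum was 371, 40.2 and 168 CPM, with 0, 4 and 4 of the 10 markers at 0. All markers of other classes together stood in the gated cells at 66.5%, 71.4% and 43.6% of their level in the whole library, and in the collagen-rich cells at 16.8%, 8.59% and 12.9% of it. These shares set how much of the library's profile was taken off where free RNA was subtracted. Over all gated cells they also hold the RNA of the other skin cells in the gate, so there they do not measure free RNA alone. What part free RNA had in the differences below was not tested.

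The rule's own genes are given as a description. Col1a1, the α1 chain of type I collagen, stood at 17057, 3756 and 3001 CPM over all gated cells, and at 27534, 10297 and 4267 CPM in the collagen-rich cells. Its partner chain Col1a2 stood at 22654, 4655 and 4655 CPM, and at 36347, 13752 and 6921 CPM in the collagen-rich cells. Both chains were thus highest in the young control in either set of cells. Dcn, decorin, stood at 21922, 17396 and 36020 CPM in the collagen-rich cells, Lum, lumican, at 2828, 2712 and 3509 CPM, and the PDGF receptor Pdgfra at 460, 539 and 449 CPM. For Dcn and Lum the old control was highest.

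The targeted genes were read first. Wwtr1 (ENSMUSG00000027803, chr3:57455649-57575910 on GRCm38, minus strand), which encodes TAZ, gave 205, 27 and 85 UMIs in all gated cells, or 140, 19.1 and 151 CPM. The ratio of knockout to young control was 0.137 (95% interval 0.0879 to 0.205, exact for counting error only, as all intervals here). In the collagen-rich cells Wwtr1 stood at 136, 26.8 and 136 CPM, a ratio of 0.197 (0.0830 to 0.401). In sub-cluster 7 it had 24, 0 and 24 UMIs. Yap1 (ENSMUSG00000053110, chr9:7931999-8004596 on GRCm38, minus strand) gave 87, 81 and 24 UMIs, or 59.3, 57.3 and 42.7 CPM, a ratio of 0.966 (0.705 to 1.32), and 50.5, 70.3 and 32.7 CPM in the collagen-rich cells. The kit counts 3′ ends, and which exons are flanked by loxP is not stated, so UMIs of Yap1 from outside the deleted part check nothing.

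A Wwtr1 UMI was found in 35.7% (29.5% to 42.3%), 8.93% (2.96% to 19.6%) and 37.9% (25.5% to 51.6%) of collagen-rich cells, at median depths of 3303, 5226 and 3028.5 UMIs. The knockout was lowest although its cells were deepest. Barcodes with at least 2 of the T cell genes Cd3d, Cd3e and Cd3g, which should lack Wwtr1, had it in 3.74%, 2.56% and 9.27% at median depths of 2621, 4023.5 and 2974. After thinning each cell to 1500 UMIs, the collagen-rich shares were 19%, 0% and 13.6%, over 184, 52 and 44 cells. Yap1 was found in 15.4%, 30.4% and 12.1% of collagen-rich cells before thinning and in 9.78%, 1.92% and 9.09% after it. Its thinned knockout share rests on 1 of 52 cells (0.0487% to 10.3%), so no direction is given.

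Over all gated cells, the knockout differed from the young control partly in genes of the other skin cells named above. A gene was counted as higher or lower where its mean over the libraries was at least 20 CPM, its ratio was 2 or more or else 0.5 or less, and its interval stayed beyond 1.5-fold on that side. Of those, the strongest are ranked by the interval's bound nearest to 1, called the near bound. Of 6554 genes measured, 299 were higher in the knockout (4.56%) and 337 lower (5.14%). The strongest by the near bound were the endothelial adhesion genes Selp (1.36, 141 and 17.8 CPM, a ratio of 103, 28.2 to 859) and Sele (1.36, 78.6 and 14.2 CPM), both leading genes of sub-cluster 2. Also among the 12 strongest were the prostaglandin synthase Ptgs2 (8.18, 157 and 10.7 CPM) and the chemokines Ccl2 (134, 890 and 164 CPM) and Cxcl2 (36.8, 282 and 33.8 CPM). Both chemokines are leading genes of sub-cluster 4, which held mostly knockout cells, and Ptgs2 is a leading gene of sub-cluster 7. Myh11, smooth muscle myosin, stood at 265, 1834 and 285 CPM. The keratins Krt77 (803, 10.6 and 272 CPM) and Krt10 (1163, 45.3 and 313 CPM) were among the 12 strongest lower genes, as were the epidermal genes Krt1, Krtdap and Dsg1a. In the collagen-rich cells Myh11 stood at 32.9, 70.3 and 18.7 CPM and was not past the limits.

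The old control, too, differed over all gated cells partly in genes of other skin cells. There 96 genes were higher than in the young control (1.46%) and 119 lower (1.82%). Cst6, a cystatin of upper epidermis and follicle, stood at 83.2, 62.3 and 769 CPM, and the Langerhans cell gene Cd207 at 4.77, 7.08 and 58.8 CPM. Cpa3 and Mcpt4, both mast cell proteases, stood at 187, 14.2 and 0 CPM and at 331, 25.5 and 5.34 CPM. Among the 12 strongest lower genes were also Col3a1 and Sparc, which are matrix genes. Col3a1 stood at 11611, 3089 and 2101 CPM and Sparc at 11871, 3555 and 2411 CPM.

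The collagen-rich cells are described in the rest of the text unless stated otherwise. They carried 851752, 298639 and 213992 UMIs. Of 6035 genes measured in them, 220 were higher in the knockout (3.65%) and 128 lower (2.12%), and 89 were higher in the old control (1.47%) and 55 lower (0.911%). The median log2 ratio over all these genes was 0.15 for the knockout and 0.11 for the old control. These shares and medians over all genes are to be read beside each count and median of a gene list below. With trimmed-mean (TMM) scaling in place of CPM, which shifted every log2 ratio by -0.14 and -0.13, the counts were 164 higher and 174 lower in the knockout and 65 higher and 79 lower in the old control. Which of the 5 sub-clusters a library filled differed as well: the young control's cells were mostly of sub-cluster 1 and the knockout's mostly of sub-clusters 14 and 6.

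The type III collagen transcript was lower in both other libraries than in the young control, and 3 further collagens were lower in the old control. Col3a1 (chr1:45311538-45349706 on GRCm38), which makes type III collagen, stood at 18299, 8629 and 3075 CPM, a ratio of 0.472 (0.452 to 0.492) for the knockout and 0.168 (0.155 to 0.182) for the old control. Col5a1, a type V chain that starts fibrils, stood at 841, 479 and 234 CPM. Its partner Col5a2 stood at 780, 921 and 304 CPM and Col6a3, of the beaded type VI filaments, at 1059, 1088 and 509 CPM. These 3 were lower in the old control by the size rule and not in the knockout. Of the 10 measured fibrillar and fibril-associated collagens outside the rule, 2 were lower in the knockout (Col3a1 and Col14a1) and 4 in the old control (Col3a1, Col5a1, Col5a2 and Col6a3), with none higher in either. Their median log2 ratio was -0.12 for the knockout and -1.01 for the old control.

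The lower Col3a1 level was present in 4 of the collagen-rich sub-clusters. In sub-cluster 1 Col3a1 stood at 14512, 8022 and 2258 CPM, in sub-cluster 6 at 27331, 10370 and 6709 CPM, in sub-cluster 9 at 10379, 5000 and 1020 CPM and in sub-cluster 12 at 13818, 3444 and 4852 CPM. All 4 had their highest value in the young control. In sub-cluster 7, which was not collagen-rich, Col3a1 stood at 3810, 3857 and 3047 CPM, with ratios of 1.01 (0.887 to 1.16) for the knockout and 0.800 (0.689 to 0.929) for the old control. In sub-cluster 14 the single young control cell had 10 UMIs of Col3a1, so its ratio is not given.

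Of the enzymes and chaperones that modify collagen, 1 was past the limits. Serpinh1, the collagen chaperone HSP47, stood at 1821, 1768 and 930 CPM and the crosslinking enzyme Lox at 241, 147 and 112 CPM. Neither was past the size rule. Adamts2, which cleaves the amino propeptide of procollagen, stood at 834, 750 and 294 CPM and was lower in the old control (ratio 0.353, 0.268 to 0.457). It was the only gene of the 20 measured in that list past the limits in either comparison, with list medians of -0.16 for the knockout and -0.32 for the old control.

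Of the small leucine-rich proteoglycans 1 was lower in the knockout and none in the old control. Biglycan, Bgn, stood at 1423, 1380 and 1262 CPM, with ratios of 0.970 (0.865 to 1.09) and 0.887 (0.774 to 1.01), and osteoglycin, Ogn, at 263, 221 and 327 CPM. Of 7 measured outside the rule, Ecm2 alone was past the limits, at 458, 198 and 360 CPM, lower in the knockout, and the median log2 ratios were -0.41 and -0.17. Tenascin-X, Tnxb, which links fibrils, stood at 757, 686 and 813 CPM and dermatopontin, Dpt, at 903, 720 and 650 CPM, and neither was past them.

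Elastin was lowest in the old control. Eln stood at 1151, 730 and 257 CPM, a ratio of 0.223 (0.167 to 0.293) in the old control and 0.634 (0.545 to 0.735) in the knockout. Fibrillin 1, Fbn1, stood at 713, 847 and 393 CPM, and the microfibril gene Mfap4 at 1293, 576 and 930 CPM, lower in the knockout (0.446, 0.377 to 0.524). Mfap4 is a leading gene of sub-cluster 1, which held 143 young control, 4 knockout and 31 old control cells. With the libraries pooled it stood there at 1754 CPM, against 289 CPM in the remaining gated cells. Of 18 measured, Mfap4 alone was past the limits in the knockout and Eln alone in the old control. The list's median log2 ratio was 0.02 in the knockout, which turned to -0.12 with TMM scaling, and -0.08 in the old control.

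**Figure D3:**
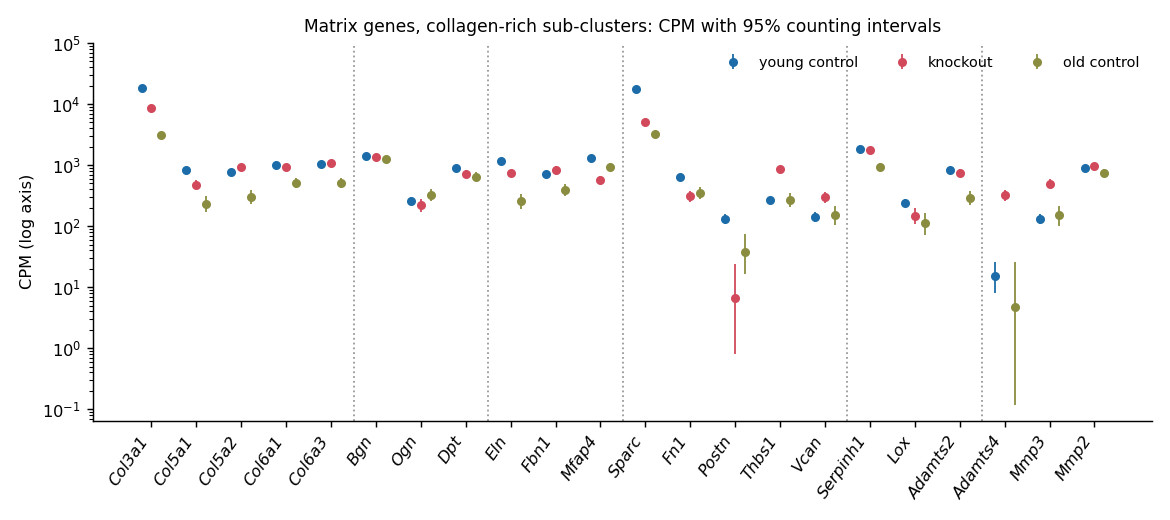
CPM (log axis) of matrix genes in the collagen-rich cells of each library with 95% counting intervals, ordered as collagens, proteoglycans and Dpt, elastic fibre genes, glycoproteins, modifying enzymes and proteases. Col3a1, Sparc and Eln were highest in the young control, and Thbs1, Vcan, Adamts4 and Mmp3 were highest in the knockout.

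Glycoproteins moved in both directions. Sparc, a collagen-binding matricellular protein, stood at 17889, 5096 and 3290 CPM, with ratios of 0.285 (0.270 to 0.300) and 0.184 (0.170 to 0.198). Fibronectin, Fn1, stood at 627, 308 and 350 CPM and periostin, Postn, at 131, 6.70 and 37.4 CPM, both lower in the knockout. In the knockout thrombospondin 1, Thbs1, was higher at 268, 864 and 271 CPM (ratio 3.23, 2.69 to 3.87), as were versican, Vcan (142, 298 and 154 CPM), Spon1 (34.0, 124 and 14) and Spon2 (24.7, 147 and 4.67). Of 20 measured, 4 were higher and 6 lower in the knockout, and 1 higher and 5 lower in the old control. Smoc2, a calcium-binding matricellular gene, was the higher one there, at 515, 228 and 1145 CPM, and it is a leading gene of sub-cluster 9. Postn did not keep its place: with cells taken by their own marker share instead of sub-clusters, the knockout ratio was 0.633.

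Among proteases, Adamts4, an aggrecanase that also cleaves versican, was low in both controls and higher in the knockout. It had 13, 95 and 1 UMIs, or 15.3, 318 and 4.67 CPM, a ratio of 20.8 (11.6 to 40.6). It was detected at 14.4, 387 and 21.0 CPM in sub-cluster 6 and at 10.7, 208 and 8.49 CPM in sub-cluster 7, so the pattern was present in both. Mmp3, stromelysin 1, stood at 130, 496 and 150 CPM and Mmp19 at 28.2, 83.7 and 37.4 CPM, also higher. Adamts5 and Htra3 were lower in the knockout, and Mmp2, gelatinase A, was near equal at 898, 974 and 748 CPM. None of the 15 measured was past the limits in the old control.

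Of 17 canonical YAP and TAZ target genes measured, 3 were lower in the knockout and none higher, and 14 were within the limits. Of all genes, 2.12% were lower and 3.65% higher. The lower ones began with Ctgf, a secreted matricellular factor, at 114, 33.5 and 178 CPM (ratio 0.294, 0.137 to 0.564). The others were the IGF-binding protein Igfbp3 at 113, 30.1 and 122 CPM and Ccdc80 at 558, 218 and 505 CPM. Cyr61, a near relative of Ctgf, stood at 1154, 1192 and 879 CPM, a ratio of 1.03 (0.912 to 1.17), Amotl2 at 139, 60.3 and 140 CPM, and Ankrd1 had no UMI in any library. The list's median log2 ratio was 0.05 in the knockout (-0.09 with TMM scaling) and -0.10 in the old control, where none was past the limits. In sub-cluster 7 Ctgf had 28, 1 and 8 UMIs, or 300, 6.30 and 67.9 CPM, the same order of young control over knockout. In sub-cluster 12 it stood at 597, 66.2 and 2844 CPM, with the old control highest.

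Some genes of the actin cytoskeleton were higher in the knockout. Of 39 measured, 6 were higher and none lower: the tropomyosins Tpm1 (96.3, 325 and 98.1 CPM), Tpm2, Tpm3 and Tpm4, the Arp2/3 subunit Arpc1b (124, 335 and 173 CPM) and the formin Inf2 (42.3, 198 and 46.7 CPM, ratio 4.67, 3.04 to 7.28). Of all genes, 3.65% were higher and 2.12% lower. The list's median log2 ratio was 0.35, against 0.15 over all genes. Tpm1 was also higher in sub-clusters 6, 7, 9 and 12, with ratios from 2.68 to 6.37. Emd, which encodes the inner nuclear membrane protein emerin, stood at 34.0, 157 and 60.7 CPM and was the only one of 12 lamina and LINC genes past the limits, and lamin A, Lmna, stood at 1118, 964 and 757 CPM. In the old control 1 actin gene, Myl12b, was past them, and the actin list's median was 0.05, or -0.08 with TMM scaling.

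Several chaperones of the endoplasmic reticulum, where collagen and other secreted proteins fold, were higher in the knockout. Hspa5 (BiP, chr2:34771970-34777547 on GRCm38) stood at 548, 1319 and 607 CPM, a ratio of 2.41 (2.10 to 2.76). The HSP90 of this compartment, Hsp90b1, stood at 490, 1102 and 757 CPM and calreticulin, Calr, at 360, 824 and 416 CPM. Manf, a secreted stress-response protein, stood at 74.0, 248 and 150 CPM and Hyou1, a nucleotide exchange factor for BiP, at 9.39, 73.7 and 18.7 CPM. With Pdia4, Pdia6 and Dnajc3, 8 of 21 measured were higher in the knockout and none lower, against 3.65% and 2.12% of all genes, with a median log2 ratio of 0.70. In the old control none was past the limits and the median was 0.20. Among the list's members that were not past the limits, Herpud1, of the degradation pathway, stood at 241, 121 and 178 CPM, and Ddit3, which encodes the stress factor CHOP, at 58.7, 46.9 and 70.1 CPM.

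Promoters of such genes are known for the endoplasmic reticulum stress element, CCAAT and CCACG set 9 bases apart, and its copies in the genes that differed are shown for that reason. Both strands of the 250 bases upstream of each RefSeq start were searched (RefSeq, GRCm38.p6). The span given above for Hspa5 is from another annotation (GENCODE) with an earlier start, so its site lies inside that span. The motif was found in 35 of 27025 genes (0.130%) and in 8 of the 20 folding genes in that table (40%). Of the 8 genes higher in the knockout, 6 were in the table and 5 held it, and of the 14 other folding genes 3 held it. A match describes these letters and shows no binding. Since promoters of such genes are known for the element, its share among folding genes is background and no result of these libraries. The sites of the 5 higher genes are written 5′ to 3′ in the motif's direction with the motif's outer parts in capitals.
Hspa5 (chr2:34772020-34772049, plus strand, 47 bases upstream): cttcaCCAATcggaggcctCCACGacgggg
Hsp90b1 (chr10:86705528-86705557, plus strand, 89 bases upstream): actcaCCAATcgtgcctcaCCACGcactct
Hsp90b1 (chr10:86705632-86705661, minus strand, 194 bases upstream): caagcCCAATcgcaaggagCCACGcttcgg
Calr (chr8:84847070-84847099, plus strand, 144 bases upstream): atgggCCAATgagggtcgaCCACGcgttgt
Dnajc3 (chr14:118937822-118937851, plus strand, 87 bases upstream): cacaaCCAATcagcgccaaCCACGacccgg
Pdia6 (chr12:17266486-17266515, plus strand, 80 bases upstream): agagaCCAATgaaaggcggCCACGgcgtgg
Among genes with the motif that were not past the limits, Canx, calnexin, stood at 243, 395 and 280 CPM and Syvn1 at 50.5, 30.1 and 14 CPM.

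The knockout's Hspa5 level was above the young control's in sub-clusters 1, 6, 7 and 9 as well. In sub-cluster 6 it stood at 486, 1580 and 484 CPM, a knockout ratio of 3.25 (2.56 to 4.13), and in sub-cluster 7 at 599, 1292 and 619 CPM, a ratio of 2.16 (1.60 to 2.95). The ratio was 2.48 (1.54 to 3.81) in sub-cluster 1, which rests on 4 knockout cells, and 1.68 (1.12 to 2.49) in sub-cluster 9. In sub-cluster 12 Hspa5 stood at 480, 596 and 335 CPM, with an interval of the ratio from 0.658 to 2.27, which includes 1. Over all gated cells it stood at 537, 958 and 532 CPM, a ratio of 1.78 (1.63 to 1.95), and there 1 of the 21 folding genes was past the limits.

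Cytosolic heat shock genes differed more. The inducible HSP70 genes Hspa1b and Hspa1a are near-identical neighbours whose reads may be split between them: Hspa1b stood at 143, 2133 and 140 CPM and Hspa1a at 202, 1517 and 154 CPM. The HSP110 gene Hsph1 stood at 31.7, 372 and 32.7 CPM (ratio 11.7, 7.64 to 18.6), the constitutive Hspa8 at 780, 1698 and 799 CPM and Hsp90aa1 at 357, 1035 and 495 CPM. Of 18 measured, 9 were higher in the knockout and 1, Hspb8, was lower (140, 46.9 and 126 CPM), with a median log2 ratio of 1.02. In the old control none was past the limits. Hspa1b was higher in the knockout in sub-clusters 1, 6, 7 and 12, with ratios of 27.2, 11.2, 3.67 and 8.47, and the first of these rests on 4 knockout cells. Both Hspa1b and Hsph1 are leading genes of sub-cluster 14, which was nearly all knockout. With the libraries pooled they stood there at 2523 and 530 CPM, against 420 and 61.8 CPM in the remaining gated cells.

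Circadian clock genes differed in both directions in the knockout. Dbp, a clock output factor, had 206, 3 and 51 UMIs, or 242, 10.0 and 238 CPM, a ratio of 0.0415 (0.00850 to 0.123). The repressors Nr1d1 (323, 36.8 and 369 CPM) and Nr1d2 (128, 33.5 and 145 CPM) and the output factors Tef (112, 20.1 and 154 CPM) and Hlf (62.2, 13.4 and 159 CPM) were lower too, as was Bhlhe41. Nfil3, which opposes Dbp, stood at 24.7, 87.1 and 18.7 CPM and Clock at 43.4, 134 and 60.7 CPM, both higher. Of 13 measured, 6 were lower and 2 higher in the knockout, with a median log2 ratio of -1.22. Hlf alone was past the limits in the old control, whose median was -0.01. Over all gated cells, which contain the collagen-rich ones, 6 were lower and 1 higher. Dbp, Nr1d1, Nr1d2, Tef and Nfil3 were past the limits in both, and Per3 and Rora only over all gated cells. The labels give no time of day.

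**Figure D4:**
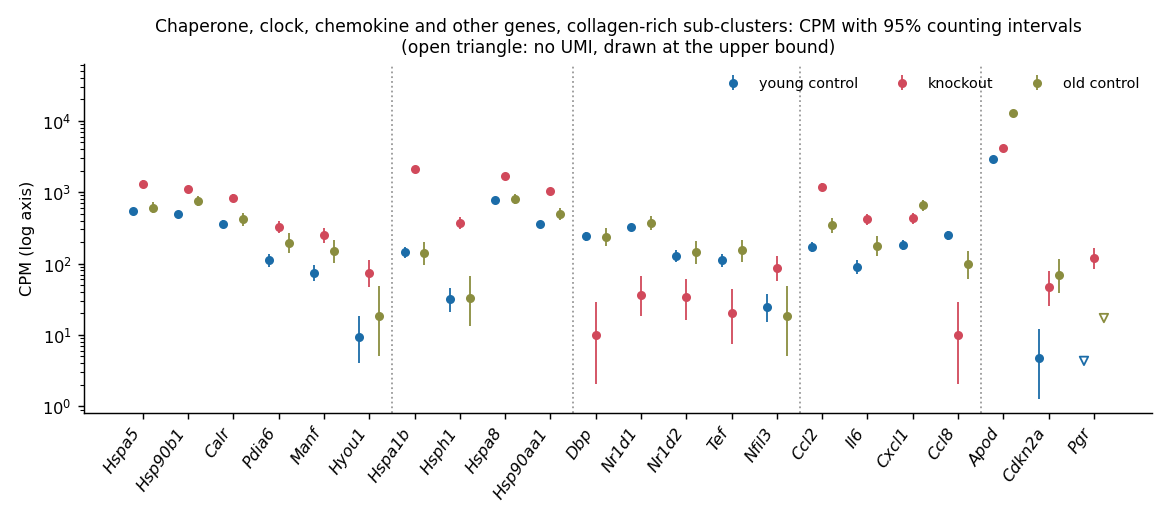
CPM (log axis) with 95% counting intervals in the collagen-rich cells of each library, ordered as reticulum chaperones, cytosolic heat shock genes, clock genes, cytokines and 3 further genes. The knockout lies above both controls for the chaperones and below them for Dbp, Nr1d1, Nr1d2, Tef and Ccl8, and the old control is highest for Apod.

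Several cytokine genes were higher in the knockout and, for some, in the old control. Ccl2, which draws monocytes, stood at 173, 1195 and 341 CPM, a ratio of 6.93 (5.70 to 8.45) for the knockout, and Il6 at 89.2, 415 and 178 CPM. Ccl7 stood at 203, 465 and 467 CPM and the neutrophil chemokine Cxcl1 at 182, 429 and 654 CPM, both higher in both libraries. Ccl8 stood at 249, 10.0 and 98.1 CPM and was lower in both, and it is a leading gene of sub-cluster 1. Of 14 measured, 7 were higher and 1 lower in the knockout, and 3 higher (with Ccl11 at 450, 332 and 1051 CPM) and 1 lower in the old control. These genes were concentrated in sub-cluster 9, where Ccl2 stood at 1462, 9458 and 1339 CPM and Cxcl1 at 1912, 4375 and 2679 CPM. That sub-cluster gave 20 of 227, 9 of 56 and 16 of 58 cells, and without it the old control ratio of Cxcl1 was 0.803 in place of 3.60.

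Complement genes past the limits were all higher, and interferon genes went both ways. Of 10 complement genes 3 were higher in the knockout, 1 was higher in the old control, and none was lower in either. C4b, whose reads may be shared with its near-identical neighbour C4a, stood at 101, 630 and 65.4 CPM and the lectin pathway protease Masp1 at 47.0, 305 and 51.4 CPM, both higher in the knockout. C4b is a leading gene of sub-cluster 14, which was nearly all knockout. With the libraries pooled it stood there at 912 CPM, against 129 CPM in the remaining gated cells. C1s1 was higher in the old control, at 318, 248 and 673 CPM. Of 20 interferon response genes 3 were higher in the knockout and 2 lower, among them Isg15 at 11.7, 60.3 and 65.4 CPM and the GTPase gene Gbp2 at 194, 36.8 and 122 CPM. Isg15 was higher in the old control as well (ratio 5.57, 2.30 to 14), and Iigp1, at 195, 83.7 and 56.1 CPM, was lower in both. None of 15 MHC class I genes was past the limits in the knockout, where B2m stood at 2616 against 1580 CPM. Over all gated cells 8 of the 15 were lower in the knockout, with a median log2 ratio of -1.01. Tap1, a peptide transporter subunit, was lower in the old control's collagen-rich cells, at 70.4, 33.5 and 9.35 CPM.

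Some genes of lipid and sterol synthesis were higher in the knockout. The desaturase Scd2 stood at 84.5, 475 and 173 CPM (ratio 5.62, 4.21 to 7.58) and fatty acid synthase, Fasn, at 39.9, 117 and 56.1 CPM. Of 18 measured, 6 were higher, among them the sterol genes Hmgcs1, Sqle and Insig1, and none lower. In the old control Apod was higher and Fabp4 lower.

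Among signalling genes, the activin antagonist Fst stood at 39.9, 265 and 65.4 CPM and the activin subunit Inhbb at 39.9, 164 and 173 CPM. Inhbb was higher in both libraries, with ratios of 4.11 (2.60 to 6.57) and 4.33 (2.64 to 7.11). Tgfb2 stood at 200, 268 and 42.1 CPM, lower in the old control. Igf1 was higher in the knockout, at 209, 546 and 262 CPM, and the binding protein Igfbp2 stood at 740, 321 and 1776 CPM. In sub-cluster 7 Igf1 stood at 150, 1405 and 424 CPM. The cellular retinoic acid-binding protein gene Crabp1 stood at 55.2, 559 and 126 CPM, a ratio of 10.1 (7.29 to 14.3), and it stood at 137, 1360 and 273 CPM in sub-cluster 6.

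A few genes were found in the knockout's collagen-rich cells and hardly in those of the controls. Pgr (progesterone receptor, chr9:8899833-8968611 on GRCm38) had 0, 36 and 0 UMIs, or 0, 121 and 0 CPM, at least 34.2-fold higher than the young control when that is set at 3 counts. It was found in 23.2% of 56 knockout cells (13.0% to 36.4%), in 0 of 227 young control cells and in 0 of 58 old control cells. At 3 cells of the total, these zeros allow shares of cells with a UMI of up to 1.32% and 5.17%, and they do not limit the share of cells that express the gene. After thinning, 5.77% of the knockout cells had it, and the T cell barcodes of the knockout had it in 1.28%. The adhesion gene Lrrtm3 stood at 0, 111 and 0 CPM, the Wnt antagonist Sfrp2 at 0, 63.6 and 0 CPM, and the hormone gene Pthlh at 3.52, 87.1 and 4.67 CPM. Outside the collagen-rich cells, Sfrp2 was a leading gene of sub-cluster 7. With the libraries pooled it stood there at 149 CPM, against 7.49 CPM in the remaining gated cells, and its values by library are not given. Pgr, Lrrtm3 and Pthlh are leading genes of sub-cluster 14, which held 30 of the 36 Pgr UMIs, all 26 of Pthlh and all 19 of Sfrp2, and without it Pthlh had none in the knockout.

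In the old control the strongest higher genes by the near bound began with Cdkn2a, the senescence-associated gene of p16 and p19Arf. It had 4, 14 and 15 UMIs, or 4.70, 46.9 and 70.1 CPM, a ratio of 14.9 (4.76 to 61.8), and the knockout was higher as well at 9.98 (3.14 to 41.6). Of the UMIs, 1, 8 and 14 lay in sub-cluster 9, and without that sub-cluster the old control ratio was 1.61 and no longer past the limits. Cdkn2a was found in 0.881%, 10.7% and 8.62% of cells, and in 1.87%, 0% and 1.99% of the T cell barcodes. Apod, a lipid-binding lipocalin (chr16:31296192-31314808 on GRCm38), stood at 2921, 4206 and 12697 CPM, a ratio of 4.35 (4.12 to 4.59). Within sub-cluster 9, which it leads, Apod stood at 31346, 38167 and 49756 CPM, an old control ratio of 1.59 (1.5 to 1.69), and weighting the sub-clusters by the young control's mix gave 1.72. The detoxifying enzymes Cyp2f2 (332, 496 and 1056 CPM) and Cyp4b1 (47.0, 60.3 and 248 CPM) were also higher, and Cyp2f2 was so within sub-clusters 1 and 6, at ratios of 3.37 (2.70 to 4.21) and 4.10 (2.90 to 5.75). Ifitm1, at 18.8, 20.1 and 103 CPM, had a ratio of 1.20 without sub-cluster 9, in place of 5.47.

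The strongest lower genes of the old control were Col3a1 and Sparc, followed by Sgk1, a hormone-regulated kinase (663, 238 and 112 CPM), the interferon-induced GTPase gene Gbp2b (68.1, 10.0 and 0 CPM) and the long noncoding RNA Meg3 (1705, 1189 and 379 CPM). Sgk1 was lower in the knockout too, with a ratio of 0.358 (0.276 to 0.459). The strongest lower genes of the knockout were partly keratinocyte genes, such as Krt77 (224, 0 and 150 CPM), Krt15 and Krt14, and all 10 measured keratinocyte markers were lower there. These markers are the members of the keratinocyte sum given above, and what part RNA of keratinocytes had in these calls was not tested.

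Papillary and reticular position markers gave no single direction. Of 10 papillary markers, Prdm1 (20, 67.0 and 14 CPM) and Col23a1 (35.2, 117 and 42.1 CPM) were higher in the knockout, and Col7a1, the anchoring fibril collagen, was lower in the old control (119, 90.4 and 23.4 CPM). Of 8 reticular and lower dermis markers none was past the limits in the knockout, and Mgp and Pdgfrl were lower in the old control, at 537, 492 and 229 CPM and at 221, 121 and 32.7 CPM. Of 11 fascia and adventitia markers Cd34 (1172, 559 and 1126 CPM) and Fndc1 were lower in the knockout, and Cd34 is a leading gene of sub-cluster 1. Dpp4, Pi16 and Sema3c were left out here because the rule used them.

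The barcodes set aside by the further limits of the rule are different cells of the same libraries, so the same genes can be read in them side by side. They held 546, 73 and 157 barcodes with at least 2 of Pi16, Dpp4, Sema3c and Opcml, 74, 69 and 38 over the Coch limit, 323, 27 and 21 over the Gpx3 and C3 limits, and 12, 62 and 45 with at least 2 of Notum, Slc26a7 and Pappa2. A barcode can be in several of these sets. Their median share of UMIs from the 5 markers was 5.89%, 3.79% and 4.61% in the Pi16 set, 3.71%, 0.639% and 2.26% in the Coch set, 4.78%, 3.80% and 4.6% in the Gpx3 and C3 set and 0.200%, 0.311% and 0.402% in the Notum set. The Notum set was thus poor in fibroblast markers in every library, and the Coch set was so in the knockout. Hspa5 had knockout ratios of 2.00 (1.86 to 2.16), 1.95 (1.70 to 2.24), 1.81 (1.56 to 2.09) and 2.04 (1.66 to 2.54) in that order, beside 2.41 in the collagen-rich cells. Dbp had ratios of 0.0534 in the Pi16 set, 0.0655 in the Coch set and 0.0306 in the Notum set, and no knockout UMI in the Gpx3 and C3 set. Wwtr1 had ratios of 0.128, 0.0630, 0.124 and 0.0402. These 3 genes stood on the same side in every set, and since the sets overlap, the values partly repeat the same cells.

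Other genes differed between the sets. Col3a1 had knockout ratios of 0.290, 0.208, 0.767 and 0.715 and old control ratios of 0.205, 0.209, 0.273 and 0.740, so the lower value in the old control was present in the first 3 sets as in the collagen-rich cells, at 0.168. Hspa1b had knockout ratios of 8.97, 2.30, 16 and 2.30. Apod, 4.35-fold higher in the old control's collagen-rich cells, had old control ratios of 0.912, 0.962, 1.40 and 0.909 in these sets. Ccl2 had knockout ratios of 1.12 and 0.919 in the first 2 sets and 4.33 in the Gpx3 and C3 set, and in the Notum set 1, 11 and 3 UMIs (ratio 2.36, 0.343 to 101). Thbs1, higher in the knockout's collagen-rich cells, had ratios of 0.566, 0.648, 1.22 and 0.560. Pgr stood at 0.873, 58.7 and 2.79 CPM in the Pi16 set and at 1.41, 236 and 5.76 CPM in the Gpx3 and C3 set, and had no UMI in any library in the Coch set and 0, 1 and 1 UMIs in the Notum set. The differences between the sets were not tested.

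**Figure D5:**
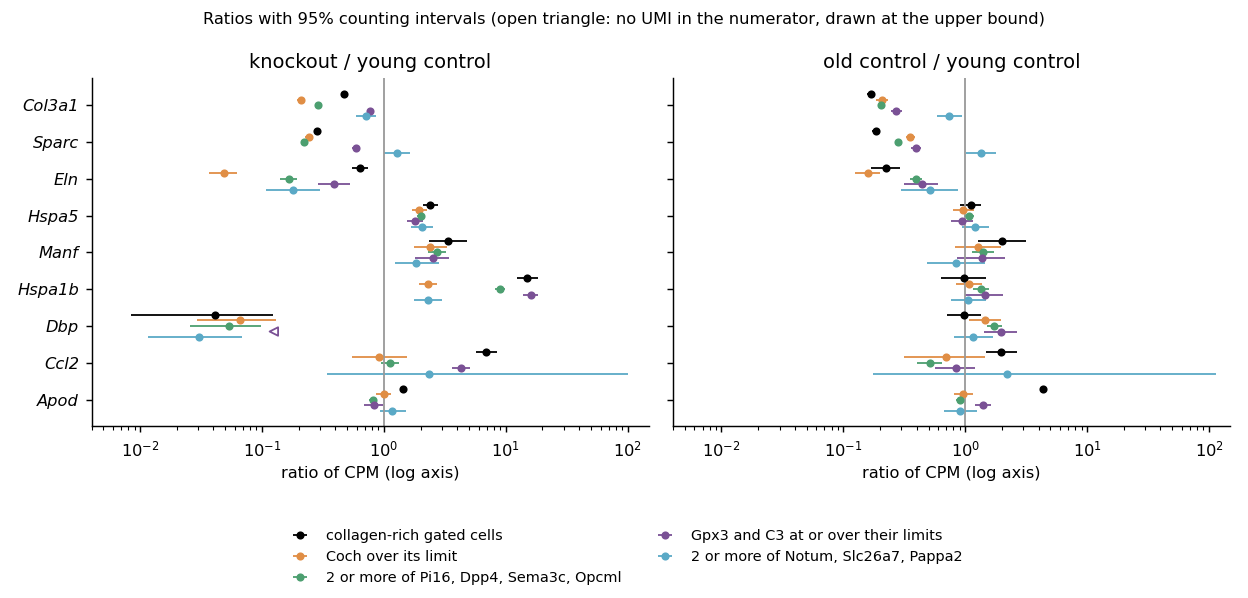
Ratios of CPM (log axis) with 95% counting intervals, knockout to young control on the left and old control to young control on the right, for 9 genes in the collagen-rich gated cells and in the 4 sets of barcodes kept out by the rule. Hspa5 and Manf lie right of 1 and Dbp left of it in every set on the left, whereas on the right Apod is at 4.35 in the collagen-rich cells and at 1.40 or less in the 4 other sets.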

How the data were processed

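Cells of dorsal skin, freed with collagenase I and passed through a 70 µm strainer, were sequenced with the Chromium 3′ v3.1 kit, 1 library for each group. The deposited values are UMI counts per gene and barcode, which the authors made with Cell Ranger 3.1.0 on mm10, per the submitters' processing notes, which also name Seurat 3.1.5. No source used here states how barcodes were filtered. The members and gene lists were chosen with earlier results of these data known.

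Counts of the members were summed for each library and divided by its members' total UMIs (CPM). Intervals are exact at 95%: Poisson for CPM, Clopper-Pearson for shares and a binomial split for ratios. They cover counting error only. A bound against a library without UMIs sets that library at 3 counts. Log2 ratios add 0.5 counts. Members of all libraries were clustered together (scanpy 1.11.5, leidenalg 0.10.2, 2000 variable genes without the rule's genes, 20 principal components, 15 neighbours, resolution 1). For each comparison the named genes were the 12 with the highest and the 12 with the lowest ratios past the size rule, ranked by the near bound. Mitochondrial, ribosomal, haemoglobin, immunoglobulin, sex-linked, predicted and rule genes were not named, nor genes with a level outside the gate more than 10 times that inside. Other genes come from the fixed lists. Automatic doublet calls (Scrublet) marked 2.82%, 0% and 0.00828% of barcodes and were not used, since 2 libraries had next to none. An alternative removed the highest 8% of scores. Other alternatives changed the scaling (TMM factors from edgeR 4.0.16), the CPM minimum, the depth, the gate's limits and the cells taken. The scripts were tested on simulated counts. Some genes are not reported here.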

Additional observations from a re-analysis of the deposited data

How the results depend on the processing

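No paired analysis was possible because each group has 1 library. For the same reason no replicate could be left out, and the alternatives show the effect of processing, not of animals. Alternatives for the collagen-rich cells were chosen after seeing the data. Over all gated cells, the 299 genes higher in the knockout became 1350 with free RNA subtracted, 551 with the further limits dropped, 468 without a CPM minimum and 102 at the young control's mix of sub-clusters. Of the 299, 205 were still called with free RNA subtracted and 59 at that mix, where 145 of the 337 lower genes were among the 383 called. Over all gated cells the amount subtracted was set by markers that other skin cells in the gate carry as well. The 337 lower ones became 220 with all 5 markers required, 128 in the collagen-rich cells, 557 at a minimum of 5 CPM and 631 without one. The 96 genes higher in the old control became 865 with free RNA subtracted, 154 by the mean over cells and 156 without a CPM minimum. The 119 lower ones became 55 in the collagen-rich cells, 295 with free RNA subtracted, 184 at 5 CPM, 195 by the mean over cells, 185 without a minimum and 75 after thinning. In the collagen-rich cells the knockout's 220 higher genes became 134 after thinning and 144 at the young control's mix, and its 128 lower ones 52 and 296. Of the 220, 93 were still called after thinning and 96 at that mix, and of the 128, 40 and 70. With sub-cluster 14 left out, 145 of the 220 and 77 of the 128 were still called. The old control's 89 higher genes became 162 with free RNA subtracted, 145 at 5 CPM and 174 by the mean over cells, and its 55 lower ones 151 by that mean and 30 after thinning. The gate's shares of 3.19%, 4.58% and 1.79% became 1.39%, 1.07% and 0.555% with all 5 markers and 2.55%, 5.36% and 1.52% at 2000 UMIs and 10% mitochondrial.

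Ratios that turned over all gated cells were, in the old control, Cd7 at 0.684 with the stricter quality limits, Wfdc18 at 2.95 with all 5 markers, Ptgds at 0.568 at the young control's mix, and Ptgds at 0, Cd207 at 0, Cma1 at 1.33 and Runx3 at 0.995 in the collagen-rich cells. In the knockout they were Wfdc18 at 1.39 with all 5 markers and Ptprb at 0.815 in the collagen-rich cells. List medians turned for the glycoproteins (0.19 with free RNA subtracted), the papillary markers (0.40 with the limits dropped and 0.31 in the collagen-rich cells) and the dermal papilla markers (-0.11 at the young control's mix), all in the knockout. In the collagen-rich cells the contractile list turned with free RNA subtracted, to -3.35 for the knockout and 0.68 for the old control. The knockout's value turned to -0.11 when clustered without the compared lists, to -0.036 with coarser clusters and to -0.29 without sub-cluster 6. Pthlh turned to 0.189 at the young control's mix and to 0 without sub-cluster 14, and Cxcl1 in the old control to 0.803 without sub-cluster 9. The cause was not tested, apart from the smaller or larger sets of genes and cells that some alternatives test by construction.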
